A study of Mus musculus with 22 samples.

Results

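The antiviral genes induced by type 1 interferon were followed in the small intestine of FVB/N mice. The group was a list of 38 gene symbols, matched to the Ensembl identifiers of the count table through the GENCODE vM21 annotation, and the symbols were matched by name alone. All 38 were among the 54838 genes listed, and all 38 passed the filter on low counts that left 16332 genes to test. Animals had either the normal glucocorticoid receptor (GRWT) or GRDim, a point-mutated receptor that dimerises poorly, and drank normal water or 25 mM ZnSO4 for 7 days. GRWT mice gave 5 libraries on water and 5 on zinc, and GRDim mice gave 6 on water and 6 on zinc. By label, 12 of the 22 libraries are ileum and 10 are IEC, for intestinal epithelial cells. The GRDim mutation is present in every cell of the animal, so the libraries do not isolate its action in the epithelium. The labels do not tie libraries to mice, and p-values therefore measure the spread between libraries.

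Type 1 interferons bind the receptor Ifnar1/Ifnar2, which works through the kinases Jak1 and Tyk2 to assemble a transcription factor complex that holds Stat2 and Irf9. That complex binds a short DNA element, the interferon-stimulated response element (ISRE), and switches on genes whose products sense, degrade or trap viral material. Gut epithelium also answers to type 3 interferons, which use another receptor and much of the same signalling, and it keeps a low level of these transcripts without infection.

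Library totals ran from 13149951 to 15620744 counts. For the floor of detection and for Myh11 in the split, CPM are counts scaled to the total of the library. The floor was taken as 3 counts, which correspond to 0.192 to 0.228 CPM. All other CPM are scaled to a library size corrected by TMM factors, which allow for differences in composition. Smooth-muscle RNA split the libraries, with Myh11, a smooth-muscle myosin, at 298 to 463 CPM in 12 of them (muscle-rich) and at 3.22 to 20.5 CPM in 10 (muscle-poor). The split did not follow the tissue labels. Among GRWT mice, IEC 4, IEC 5 and ileum 1 were muscle-rich and ileum 2 and ileum 3 muscle-poor, on water as on zinc. The 3 GRDim water libraries labelled IEC were muscle-rich and the 3 labelled ileum muscle-poor, whereas on zinc the 3 labelled ileum were muscle-rich and the 3 labelled IEC muscle-poor. Summed markers of epithelium were high on both sides (15750 to 19930 CPM in muscle-rich and 24210 to 28800 CPM in muscle-poor libraries of the fit). The library labelled GRWT zinc ileum 3 held 18.2 CPM of Fabp6, the ileal bile acid-binding protein, against 3971 to 11570 CPM in the other 21, so it went against its ileum label. GRDim water ileum a and b are libraries whose columns carry the same name, so their numbers are not known. GRWT zinc ileum 3 was left out of the fit, which then held 21 libraries and took the muscle split as a covariate. In bulk tissue, fewer cells of a type and less RNA per cell cannot be told apart.

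Levels of the antiviral genes differed widely. Per kilobase of exon, the mean over 21 libraries was highest for Ifit1bl1 at 68.7 CPM per kb. Parp9 followed at 38.5, Irf7 at 33.7 and Ifi35 at 32.1 CPM per kb. Mx1 at 0.566 and Oas2 at 0.317 CPM per kb were the lowest, and Isg15, often used as a marker of an interferon response, ranked 12 of 38 at 18.6 CPM per kb. The heat map of all members shows that they did not rise and fall together.

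**Figure D1:**
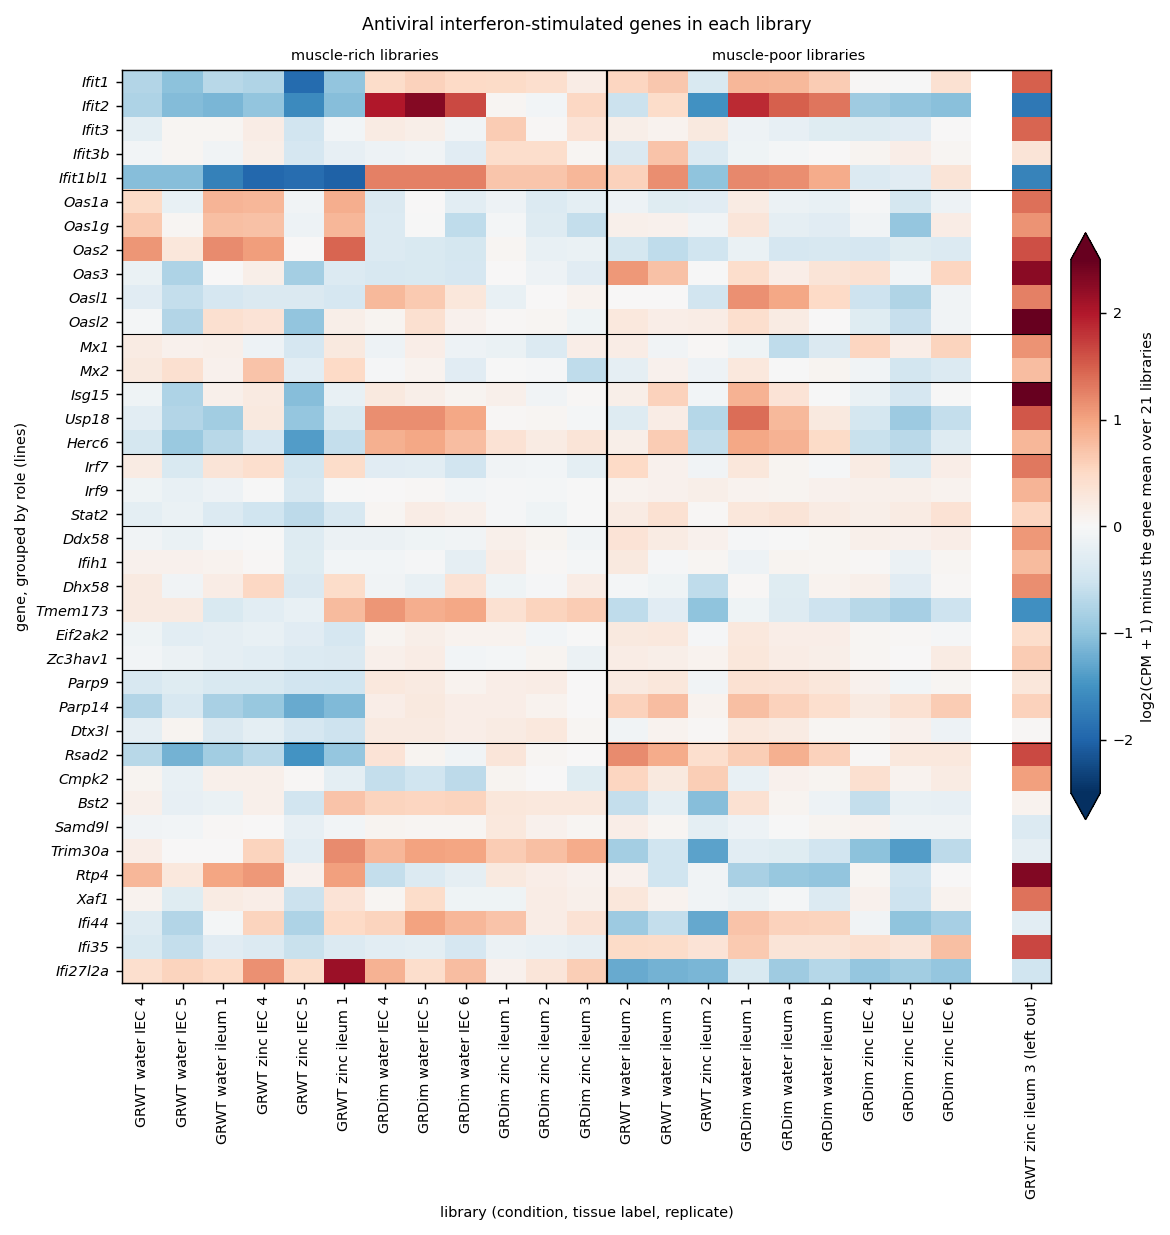
Heat map of the 38 antiviral genes (rows, grouped by role, lines between roles) in each library (columns, grouped by muscle content and condition, with the library left out of the fit at the right). Colour is log2(CPM + 1) minus the gene's mean over 21 libraries, so red is above that mean. Ifit2 is red in the GRDim water libraries on both sides (44.8 to 87.9 CPM), and Ifit1bl1 is blue in the 6 muscle-rich GRWT libraries (28.3 to 55.5 CPM).

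On water, 6 members were higher in GRDim than in GRWT mice, namely Ifit2, Ifi44, Usp18, Ifit1bl1, Herc6 and Oasl1, and Oas2 and Rtp4 were lower. Calls required a log2 fold change beyond 0.8 together with an adjusted p-value below 0.05. Of all genes tested, 3.9% were called higher and 3.47% lower in this comparison. By adjusted p-value alone 16 members passed, 13 of them higher, against 32.2% of all genes. The median log2 fold change of the 38 members was 0.15, and that of all genes -0.0027. Markers of other cells moved in the same comparison. Of 10 markers of T and intraepithelial lymphocytes, such as Cd3e, Cd8a and Gzmb, 9 were called higher in GRDim mice, and of 8 markers of B and plasma cells 5 were. Of 3 markers of plasmacytoid dendritic cells 1 was called higher, Ccr9 (log2 fold change 1.07), and of 9 markers of macrophages and dendritic cells none was. None of 10 smooth-muscle and none of 10 epithelial markers was called. By adjusted p-value alone 5 of the smooth-muscle markers passed, all lower in GRDim mice, and 3 of the epithelial ones. The median log2 fold changes of the 2 lists were -0.44 and 0.08. The part of lymphocyte RNA in the differences of the antiviral genes was not tested.

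**Figure D2:**
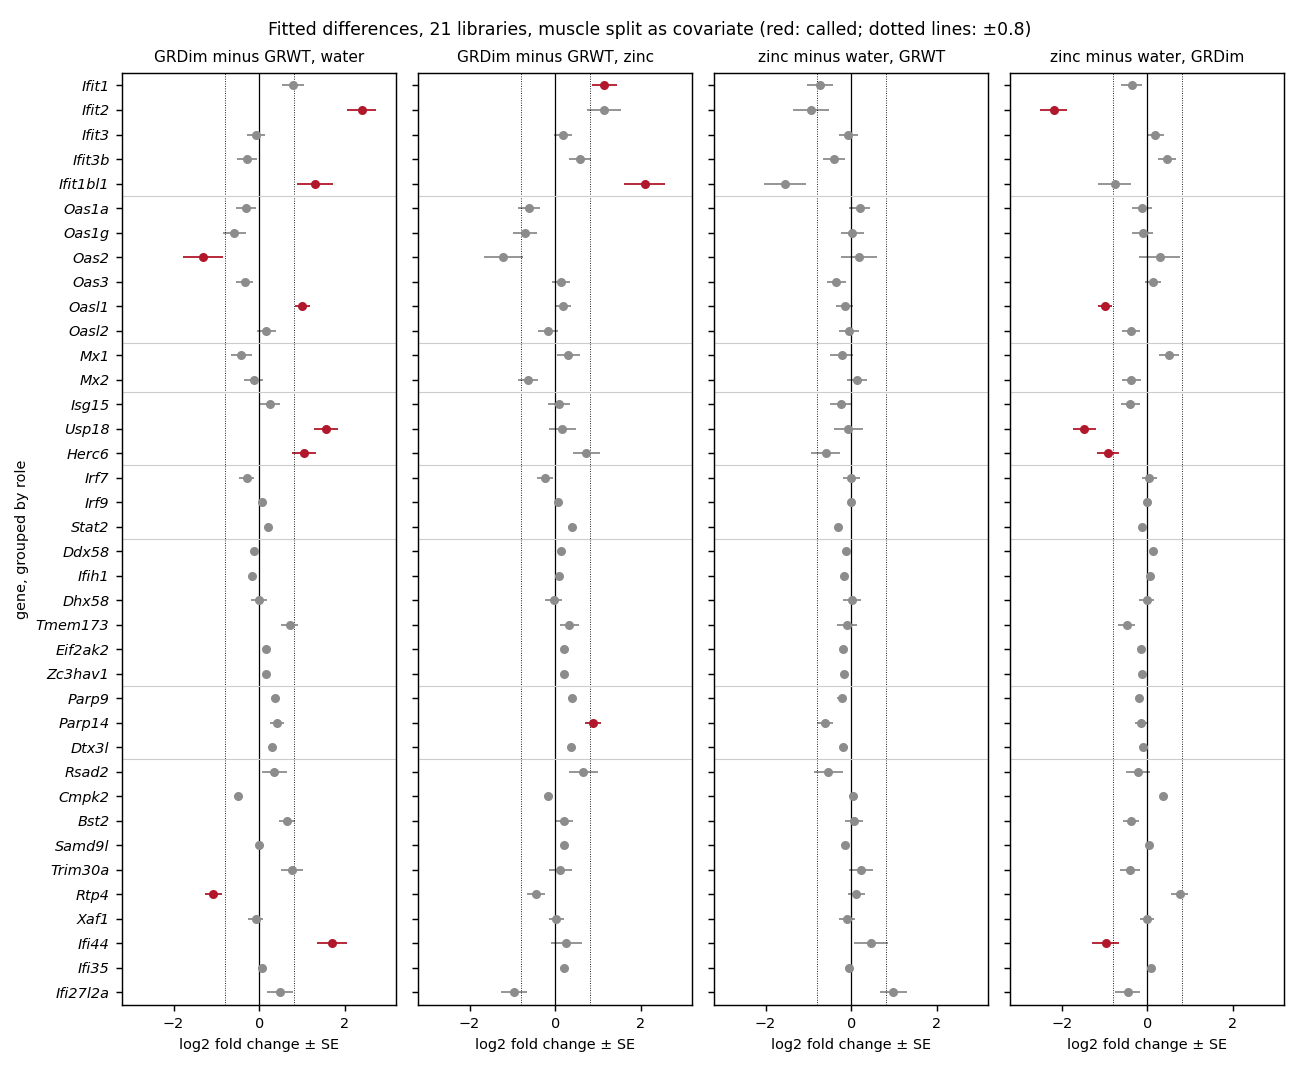
Log2 fold change ± SE of each member (rows) in 4 comparisons (panels), from the edgeR fit over 21 libraries. Red points are called, and dotted lines mark ±0.8. Called members are most numerous for GRDim against GRWT on water (6 higher, 2 lower), and none is called for zinc in GRWT mice.

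The Ifit genes encode interferon-induced proteins with tetratricopeptide repeats that bind viral RNA, and the 5 members of the family lie in a cluster on chromosome 19. Ifit2 (chr19:34550694-34576419, plus strand, GRCm38) stood at 7.29, 7.56, 9.64, 11.5 and 24.2 CPM in the 5 GRWT water libraries. In the 6 GRDim water libraries it ran from 44.8 CPM over a median of 60.7 to 87.9 CPM. The ranges did not overlap, and the log2 fold change was 2.39 ± 0.34 (SE, adjusted p = 0.0001018). Ifit1bl1, an Ifit1-like gene on the minus strand (chr19:34592891-34601956), was at 35.6, 55.3 and 55.5 CPM in the muscle-rich and at 174 and 264 CPM in the muscle-poor GRWT water libraries. It ran from 223.7 over 276 to 283 CPM in GRDim water libraries, and GRWT water ileum 3 alone overlapped that range. Its log2 fold change was 1.30 ± 0.42 (SE, adjusted p = 0.027). That call was lost without GRWT water IEC 4, GRWT water IEC 5 or GRWT water ileum 1, and over all left-out libraries the adjusted p reached 0.0827. Ifit1 (chr19:34640871-34650009) passed the adjusted p-value (0.027) at a log2 fold change of 0.78, under the fold required. Ifit3 (log2 fold change -0.08) and Ifit3b (-0.29) did not pass. They are near-identical copies, and reads that match both were left out of the counts.

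ISRE-like matches were sought in the 250 bases before each start site, in RefSeq promoters of build GRCm38.p6, because the interferon-driven factor acts through that element. The letters searched were GAAA, any 2 bases, GAAA, on both strands, with overlapping matches kept. Promoters were present for 28 of the 38 members. Of these, 12 held a match (42.9%), against 3.46% of 27025 genes. The stretches around the matches are printed below for the Ifit genes, which show how alike the copies are, and for Isg15, Oas1a and Rsad2 as members of other roles. Capitals mark the matches, and each sequence runs 5′ to 3′ along the gene.
Ifit1, chr19:34640773-34640825, plus strand: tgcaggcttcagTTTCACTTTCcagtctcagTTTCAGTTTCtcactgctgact
Ifit3, chr19:34583361-34583428, plus strand: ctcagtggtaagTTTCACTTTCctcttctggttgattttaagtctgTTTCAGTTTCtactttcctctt
Ifit3b, chr19:34607757-34607824, plus strand: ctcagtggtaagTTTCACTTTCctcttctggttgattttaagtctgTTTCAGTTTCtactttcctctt
Ifit1bl1, chr19:34602051-34602084, minus strand: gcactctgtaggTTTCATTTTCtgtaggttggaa
Isg15, chr4:156200863-156200908, minus strand: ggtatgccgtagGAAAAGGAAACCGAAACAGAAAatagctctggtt
Oas1a, chr5:120907526-120907557, minus strand: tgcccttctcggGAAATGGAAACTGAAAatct
Rsad2, chr12:26456551-26456584, minus strand: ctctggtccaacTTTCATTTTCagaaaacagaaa
The stretch of Ifit3 and that of Ifit3b are identical. A match was also present for Oas1g, Oas3, Stat2, Trim30a and Bst2. Of the members called on water, Ifit1bl1 held a match, and these letters were not in the windows of Ifit2, Ifi44, Herc6 and Oasl1. Usp18, Oas2 and Rtp4 were not among the promoters used.

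The ISG15 system attaches a small ubiquitin-like protein to other proteins. Usp18, the protease that removes ISG15 and also dampens the interferon receptor, measured 2.67, 3.02, 4.36, 4.58 and 6.53 CPM in GRWT water libraries. GRDim water libraries ran from 6.85 over 12.9 to 16.5 CPM, all above those values (log2 fold change 1.56 ± 0.28 SE, adjusted p = 0.0005146). Its exons overlap Gm44148 on the other strand, and since the strand setting of the counting is not given in the sources used here, reads of the pair cannot be told apart. Herc6, the ligase that joins ISG15 to proteins in mice, was at 8.39, 10.1 and 12.2 CPM in muscle-rich and 18.6 and 26.5 CPM in muscle-poor GRWT water libraries. The GRDim water libraries ran from 23.8 over 31.9 to 34.0 CPM, with 1 of the 6 below the highest GRWT value (log2 fold change 1.04 ± 0.28 SE, adjusted p = 0.009525). Herc6 shares exon sequence with Gm45193. Isg15 itself did not pass (log2 fold change 0.25, adjusted p = 0.43). It ran from 7.49 to 20.8 CPM in GRWT and from 13.4 to 25.5 CPM in GRDim water libraries, and these ranges overlapped.

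The OAS enzymes make short oligoadenylate chains that activate RNase L, which cuts RNA. Of the 6 family members, Oasl1 was higher in GRDim mice on water and Oas2 was lower. Oasl1, a family member known to limit the translation of Irf7, had 45.6, 51.3, 56.5, 69.1 and 69.9 CPM in GRWT water libraries. GRDim water libraries ran from 84.2 over 115.9 to 154 CPM without overlap (log2 fold change 1.01 ± 0.17 SE, adjusted p = 0.000334). Its exons overlap Gm13822 on the other strand. Oas2 stood at 1.65, 3.67 and 3.90 CPM in muscle-rich and at 0.393 and 0.587 CPM in muscle-poor GRWT water libraries, and ran from 0.589 over 0.648 to 0.927 CPM in GRDim water libraries. All 3 muscle-rich GRWT libraries lay above the GRDim ones, and both muscle-poor GRWT libraries below them. The pooled log2 fold change was -1.32 ± 0.46 (SE, adjusted p = 0.0333), and within the muscle-poor libraries it was 0.55, of the opposite sign. The call of Oas2 was also lost without any of the 3 GRDim water libraries labelled IEC, GRWT water IEC 4 or GRWT water ileum 1, with adjusted p-values up to 0.0986. Oas1a, Oas1g, Oas3 and Oasl2 did not pass, with log2 fold changes between -0.58 and 0.16. Oas1a and Oas1g are close copies, and reads that match both were left out of the counts.

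The GTPases Mx1 and Mx2, which trap viral nucleocapsids, did not pass in any comparison of zinc or genotype over the 21 libraries. Mx1 stayed between 0.992 and 3.51 CPM over the 21 libraries, and Mx2, which GENCODE classes as a polymorphic pseudogene, between 1.53 and 5.48 CPM. Among the transcription factors, Stat2 passed the adjusted p-value on water (log2 fold change 0.20 ± 0.07 SE, adjusted p = 0.0394) without reaching the fold required. Irf7, the factor that amplifies interferon production, had a log2 fold change of -0.30 and Irf9 one of 0.06, and neither passed. Irf7 overlaps Phrf1 and Irf9 shares exon sequence with Rnf31.

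Of the 6 sensors none was called on water. Tmem173, the adaptor STING that answers to cytosolic DNA, passed by adjusted p-value (log2 fold change 0.71 ± 0.21 SE, adjusted p = 0.0135). It was 5.47 to 8.91 CPM in muscle-rich GRWT and 14.9 to 17.1 CPM in muscle-rich GRDim water libraries, without overlap, and overlapped among the muscle-poor ones. The RNA sensors Ddx58 (RIG-I), Ifih1 (MDA5) and Dhx58 (LGP2), the RNA-dependent kinase Eif2ak2 and the RNA-binding Zc3hav1 had log2 fold changes from -0.16 to 0.15 and did not pass. Parp9 and Dtx3l, partners in a ubiquitin ligase complex whose genes overlap on opposite strands, passed by adjusted p-value at log2 fold changes of 0.36 and 0.29. Parp14, an ADP-ribosyltransferase that shares exon sequence with Gm49730, did not (log2 fold change 0.42, adjusted p = 0.0669).

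Among the 10 other effectors, Ifi44, a cytoplasmic antiviral protein, was higher and Rtp4, a protein that binds viral RNA, was lower in GRDim mice on water. Ifi44 had 1.26, 1.58, 1.81, 2.41 and 3.12 CPM in GRWT water libraries. It ran from 5.29 over 5.68 to 7.58 CPM in GRDim water libraries without overlap (log2 fold change 1.70 ± 0.35 SE, adjusted p = 0.001203). Rtp4 had 11.96, 18.0 and 20.4 CPM in muscle-rich and 6.61 and 10.6 CPM in muscle-poor GRWT water libraries. In GRDim water libraries it was 6.13 to 8.19 CPM on the muscle-rich and 4.45 to 5.10 CPM on the muscle-poor side, below the GRWT range on each side (log2 fold change -1.08 ± 0.20 SE, adjusted p = 0.0004988). Rtp4 shares exon sequence with Gm45338. Bst2, which tethers budding virus particles to the cell, and Trim30a passed by adjusted p-value at log2 fold changes of 0.64 and 0.76. Cmpk2, the nucleotide kinase that lies beside Rsad2 on chromosome 12, passed in the other direction at -0.50. Rsad2 (viperin), Samd9l, Xaf1, Ifi35 and Ifi27l2a did not pass in the pooled comparison, with log2 fold changes from -0.08 to 0.47.

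**Figure D3:**
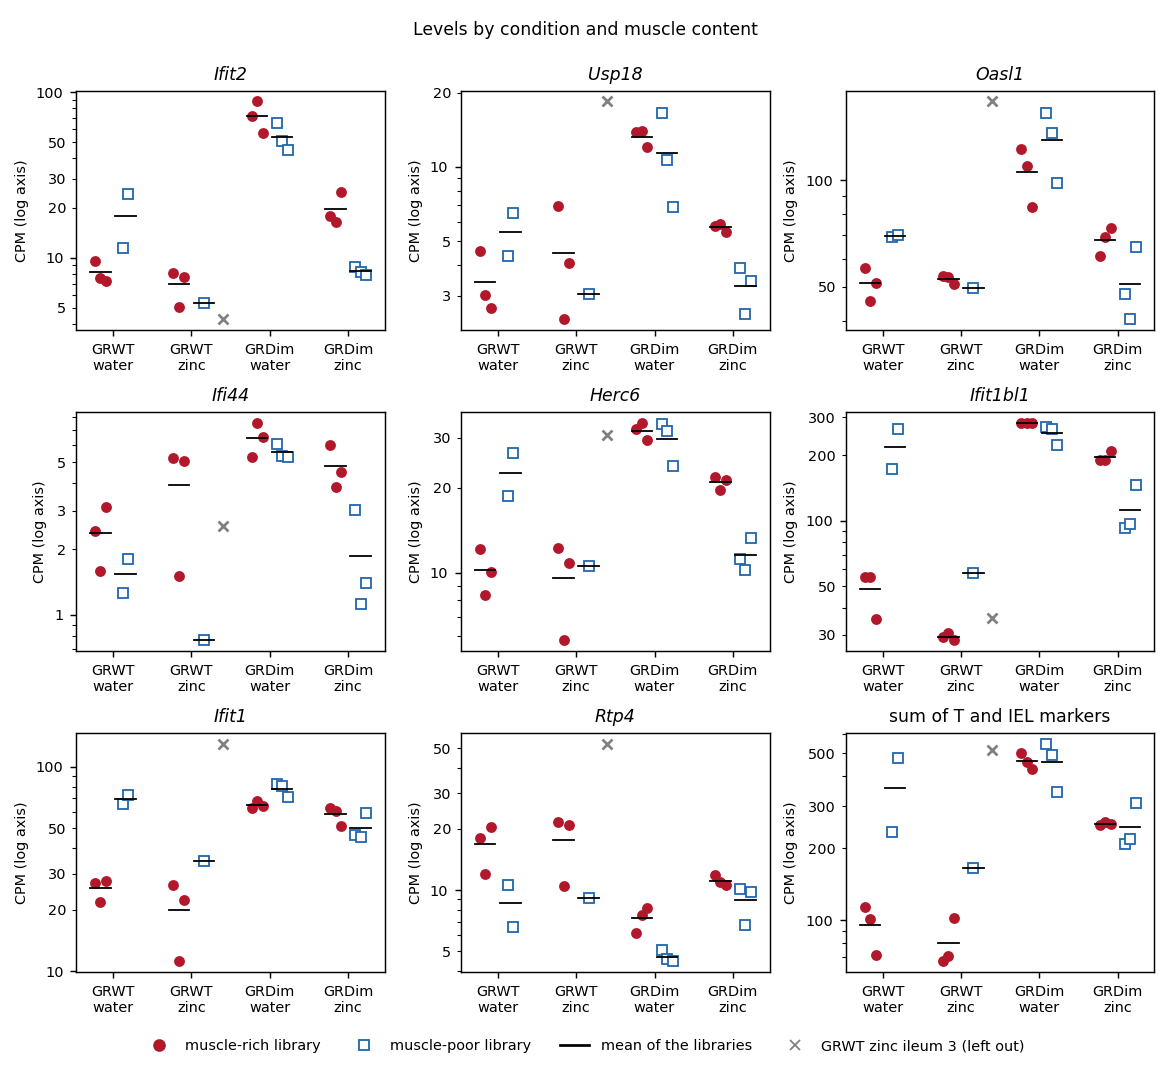
CPM (log axis) of 8 members and of the summed T and intraepithelial lymphocyte (IEL) markers in each library, by condition. Filled circles are muscle-rich and open squares muscle-poor libraries, bars are means of the libraries on each side, and the cross is GRWT zinc ileum 3. Within each side, Ifit2, Usp18 and Oasl1 of the fitted libraries are highest in GRDim mice on water, whereas Ifit1bl1 and Ifit1 in muscle-poor GRWT water libraries are near the GRDim level.

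The genotype difference on water depended on the side of the muscle split for 10 members, tested as the difference between the differences. By the same test, which used the adjusted p-value alone, 7.44% of all genes passed. For 9 of the 10 the difference was smaller in muscle-poor libraries, with Ifit1bl1 (-2.32 ± 0.29 SE on the log2 scale, adjusted p = 0.0002603), Rsad2 (-1.49 ± 0.27 SE, adjusted p = 0.002296) and Parp14 (-0.93 ± 0.18 SE, adjusted p = 0.004001) at the lowest adjusted p-values. Ifit2 (-1.56), Herc6 (-1.24), Ifit1 (-1.18), Parp9 (-0.47), Stat2 (-0.41) and Eif2ak2 (-0.35) shared that sign, and Oas2 (2.79) had the other. Ifit1bl1, Rsad2 and Parp14 stayed called whichever of the 21 libraries was left out, and the other 7 lost the call in at least 1 such fit. Ifit2 ranged from -2.0003 to -0.91, and without GRWT water ileum 3 it was -0.91 with an adjusted p of 0.268 in edgeR. The count of 10 was not stable, and over the fits without 1 library it ranged from 3 to 11, with falls beyond 1.5 times without GRDim water IEC 5, ileum a or ileum b and without GRWT water IEC 5, ileum 1 or ileum 3. With all 22 libraries it was 3 (Ifit1bl1, Ifit2 and Parp14), where 1.31% of genes passed, and Rsad2 was at -1.50 with an adjusted p of 0.0743. Rsad2, a radical enzyme that makes a chain-terminating nucleotide, is given as an example. On the muscle-rich side it was 5.43, 7.03 and 8.07 CPM in GRWT and 12.7, 14.3 and 17.6 CPM in GRDim mice, so GRDim lay above. On the muscle-poor side it was 27.1 and 32.3 CPM in GRWT and 20.8, 21.4 and 26.2 CPM in GRDim mice, so GRDim lay below.

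With the 12 muscle-rich libraries alone, 11 members were higher and 3 lower in GRDim mice on water, where 4.92% of genes were called higher and 5.43% lower. Ifit2 (log2 fold change 3.15), Ifit1bl1 (2.55), Usp18 (1.96), Herc6 (1.65), Ifi44 (1.46), Ifit1 (1.37), Rsad2 (1.13), Oasl1 (1.05), Tmem173 (1.05), Trim30a (0.96) and Parp14 (0.85) were the higher ones. The lower ones were Oas2 (-2.21), Rtp4 (-1.19) and Oas1g (-0.90). Within the muscle-poor libraries Ifi44 (1.84) and Ifit2 (1.57) were called higher, where 0.446% of genes were, and that side compares 3 libraries with 2. The summed lymphocyte markers had the same layout. They came to 71.8 to 113 CPM in GRWT and 428 to 502 CPM in GRDim water libraries on the muscle-rich side, and to 233 to 478 and 344 to 548 CPM on the muscle-poor side. Of the 10 markers, 8 passed the test of the difference between the sides, all with a smaller genotype difference in muscle-poor libraries. Whether these cells account for the members' differences was not tested.

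**Figure D4:**
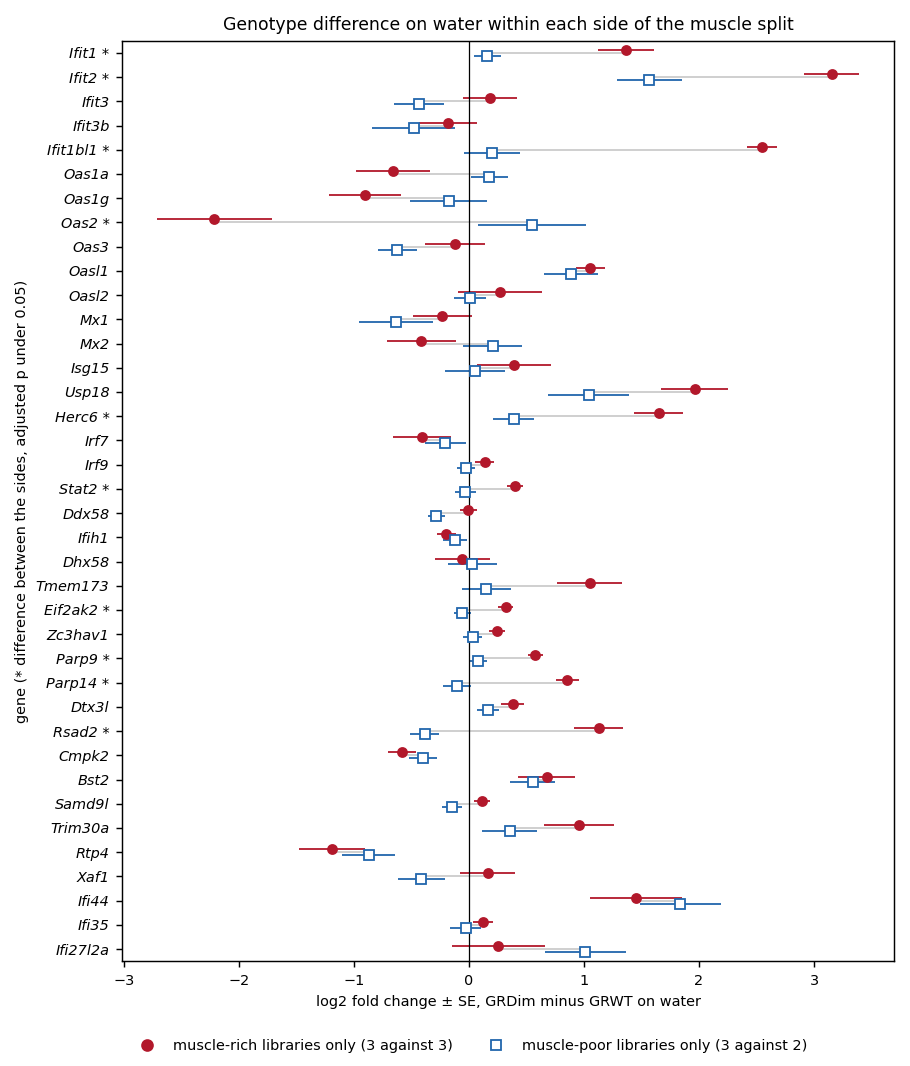
Log2 fold change ± SE of GRDim against GRWT on water for each member, fitted in muscle-rich libraries alone (filled circles) and in muscle-poor libraries alone (open squares). A star marks the 10 members whose genotype difference differed between the sides. Ifit1bl1 lies at 2.55 among muscle-rich and at 0.20 among muscle-poor libraries, whereas Ifi44 and Oasl1 lie close together on both sides.

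In GRDim mice, zinc lowered 5 members, namely Ifit2, Usp18, Oasl1, Ifi44 and Herc6, and raised none. Of all genes, 0.82% were called lower and 0.869% higher. By adjusted p-value alone 7 members passed, against 10.7% of all genes, the further ones being Rtp4 (log2 fold change 0.75) and Cmpk2 (0.37), which were higher on zinc. The 5 were also higher in GRDim than in GRWT mice on water, but both comparisons use the same GRDim water libraries and are not independent of each other. The median log2 fold change was -0.12 over the members and -0.0064 over all genes.

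Ifit2 fell by 2.19 on the log2 scale (SE 0.31, adjusted p = 0.0008216). On zinc it was 7.88, 8.21 and 8.78 CPM in muscle-poor and 16.4, 17.9 and 25.1 CPM in muscle-rich GRDim libraries, all under the lowest GRDim water library at 44.8 CPM. Usp18 ran from 2.54 over 4.66 to 5.86 CPM on zinc, below every GRDim water library (log2 fold change -1.47 ± 0.27 SE, adjusted p = 0.002442). Oasl1 ran from 40.5 over 62.9 to 73.2 CPM on zinc, also without overlap with the GRDim water libraries (log2 fold change -0.98 ± 0.16 SE, adjusted p = 0.001591). These 3 stayed called whichever of the 21 libraries was left out.

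Herc6 was 10.2 to 13.3 CPM in muscle-poor and 19.7 to 21.9 CPM in muscle-rich GRDim zinc libraries, under the 23.8 CPM of the lowest water library (log2 fold change -0.92 ± 0.26 SE, adjusted p = 0.0332). Its call was lost without any of 8 libraries, which are GRDim water IEC 4, 5 and 6, GRDim water ileum 1, GRDim water ileum a and GRDim zinc IEC 4, 5 and 6, with adjusted p-values up to 0.0772. Ifi44 was 1.12, 1.403 and 3.03 CPM in muscle-poor and 3.84, 4.51 and 5.98 CPM in muscle-rich GRDim zinc libraries, and the latter overlapped the water libraries (log2 fold change -0.97 ± 0.31 SE, adjusted p = 0.0495). That call was the weakest, and it held in 7 of 21 fits that left out a library, with adjusted p-values from 0.0334 to 0.108. Ifit1bl1 did not pass in the pooled fit (log2 fold change -0.76, adjusted p = 0.23), yet its 6 zinc libraries, at 92.9 to 209 CPM, lay below all 6 water libraries.

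Within muscle-poor libraries zinc lowered 6 members in GRDim mice, namely the same 5 and Ifit1bl1 (log2 fold change -1.17), where 0.879% of genes were called lower, and Mx1 (1.15) and Rtp4 (0.92) were called higher, where 0.551% of genes were. Within muscle-rich libraries Ifit2 (-1.89) and Usp18 (-1.24) were called lower, where 0.531% of genes were. On each side the GRDim water and GRDim zinc libraries carry different tissue labels, so zinc and the label cannot be told apart there. With all 22 libraries in the fit, Ifit2 alone was called for zinc in GRDim mice (log2 fold change -2.19), where 0.323% of genes were called lower. Of the 10 lymphocyte markers, 1 was called lower on zinc in GRDim mice. Their sum was 250 to 258 CPM in muscle-rich and 208 to 308 CPM in muscle-poor GRDim zinc libraries, against at least 344 CPM in every GRDim water library, and their part in the fall of these members was not tested.

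In GRWT mice zinc changed no member by the edgeR test, in which 0.147% of all genes were called either way. At an unadjusted p-value under 0.05 there were 11 members, against 11% of all genes, and DESeq2 called 1, Ifit1bl1 (log2 fold change -1.55), where it called 0.266% of the 11261 genes it gave an adjusted p. In edgeR the same gene had a log2 fold change of -1.55 and an adjusted p-value of 0.23. It measured 28.3, 29.4 and 30.6 CPM in muscle-rich GRWT zinc libraries and 57.5 CPM in GRWT zinc ileum 2, each below the GRWT water libraries of its own side. Ifit2 was 5.02, 7.71 and 8.13 CPM in muscle-rich GRWT zinc libraries, overlapping those on water, and 5.36 CPM in GRWT zinc ileum 2 (log2 fold change -0.94, adjusted p = 0.42). Log2 fold changes over the members ran from -1.55 to 0.98, the latter for Ifi27l2a. The muscle-poor side holds 1 GRWT zinc library in this fit. On that side alone Ifit1 was called lower (-1.01), where 0.0697% of genes were, with the lone library assumed to vary like the others. With GRWT zinc ileum 3 added to that side the call was lost and the sign turned (0.27), and the median over the members went from -0.33 to 0.44.

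The interaction, which tests whether the zinc effect differs between the genotypes, called 0 members in edgeR. At an unadjusted p-value under 0.05 there were 10 members, against 10.6% of all genes, and DESeq2 called 1, Oasl1 (log2 difference -0.80), where 2.5% of the 5883 genes it gave an adjusted p passed. By adjusted p-value in edgeR, 0.0122% of all genes passed. The largest negative values were those of Ifi44 (-1.44), Ifi27l2a (-1.43), Usp18 (-1.399) and Ifit2 (-1.25), with adjusted p-values of at least 0.286. GRDim mice on zinc were also set against GRWT mice on water. By edgeR and by DESeq2 0 members were called, and 1.37% of all genes were in edgeR. At an unadjusted p-value under 0.05 there were 4 members, against 23.0% of all genes. Ifit2 had a log2 fold change of 0.20 and Usp18 one of 0.09 in that comparison. The sides of the muscle split differed from this pooled result. In muscle-rich libraries Ifit1bl1 (2.001), Ifit2 (1.26), Ifit1 (1.19), Rsad2 (1.13) and Herc6 (1.02) were called higher in GRDim mice on zinc, where 2.14% of genes were, and Oas2 (-1.59) was called lower, where 2.28% were. In muscle-poor libraries Herc6 (-0.97) and Rsad2 (-0.91) were called in the opposite direction, where 0.356% of genes were called lower. It shares the GRWT water and GRDim zinc libraries with the comparisons above.

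On zinc, 3 members were higher in GRDim than in GRWT mice, namely Ifit1bl1, Ifit1 and Parp14, where 1.68% of genes were called higher and 0.771% lower. Ifit1bl1 ran from 92.9 over 168 to 209 CPM in GRDim zinc libraries, all above the 4 GRWT zinc libraries (log2 fold change 2.09 ± 0.48 SE, adjusted p = 0.0156). Ifit1 was 11.2, 22.3 and 26.4 CPM in muscle-rich GRWT zinc libraries, 34.7 CPM in GRWT zinc ileum 2 and 45.1 to 63.1 CPM in GRDim zinc libraries, again without overlap (log2 fold change 1.15 ± 0.29 SE, adjusted p = 0.0225). Parp14 was 89.0, 99.2 and 110 CPM in muscle-rich GRWT zinc libraries and 227 CPM in GRWT zinc ileum 2, and ran from 215 over 246 to 331 CPM in GRDim zinc libraries (log2 fold change 0.88 ± 0.18 SE, adjusted p = 0.0101). Leaving out GRWT zinc IEC 5 ended all 3 calls, and leaving out GRWT zinc IEC 4 ended that of Ifit1bl1, with log2 fold changes down to 1.94 for Ifit1bl1, 0.94 for Ifit1 and 0.79 for Parp14. All 3 calls were lost without the covariate (log2 fold changes 2.09, 1.21 and 0.98 in the order above) and in muscle-poor libraries alone (0.97, 0.54 and 0.35), and in all 10 muscle-poor libraries Ifit1 was at -0.74. With GRWT zinc ileum 3 in the fit the count became 2 higher (Ifit2 and Ifit1bl1) and 6 lower (Oas2, Rtp4, Oas1a, Oas1g, Ifi27l2a and Mx2), where 1.64% of genes were called higher and 2.19% lower. Within muscle-rich libraries 6 members were called higher, where 2.34% of genes were, and Oas2 (-1.65) was called lower, where 1.96% were. Of the 10 lymphocyte markers 5 were called higher in GRDim mice on zinc. Their sum was 67.2 to 103 CPM in muscle-rich GRWT zinc libraries and 165 CPM in GRWT zinc ileum 2, under the GRDim zinc sums of the same side. Of the 8 markers of B and plasma cells 3 were called higher, namely Jchain (1.09), Mzb1 (1.08) and Tnfrsf17 (1.24), and the part of either cell type in these differences was not tested.

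The muscle split itself separated 6 members, or 15.8% of the 38, a smaller share than the 20.5% of all genes called lower alone. Rsad2 was higher in muscle-poor libraries (log2 fold change 0.95 ± 0.22 SE, adjusted p = 0.0007972), where 2.38% of genes were. Ifi27l2a (-2.14), Trim30a (-1.54), Tmem173 (-1.22), Oas2 (-1.20) and Ifi44 (-0.86) were lower there, where 20.5% of genes were called lower. Muscle-rich libraries also held more RNA of other cells. Summed fibroblast markers were at least 593 CPM there and at most 57.1 CPM in muscle-poor libraries of the fit, and macrophage and dendritic cell markers at least 167 against at most 18.8 CPM. Their part in these differences was not tested.

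The rest of the pathway was measured with a list of 41 genes by role, of which 40 were matched and 31 tested. Of 10 interferon ligands only Ifng was tested. Ifnb1, the 4 Ifna genes, Ifne and Ifnl2 had 0 counts in each of the 21 libraries, which allows up to 0.192 to 0.228 CPM depending on the library. Ifnk reached 2 counts and Ifnl3 1 count in a library. Ifng, the type 2 interferon made by lymphocytes and natural killer cells, was higher in GRDim mice on water (log2 fold change 2.27 ± 0.46 SE, adjusted p = 0.0008854). On water, Irf8 (1.02) and Irf5 (0.83), factors of the interferon response, and Socs1 (1.48), an inhibitor of Jak kinases, were also called higher. No receptor or kinase was called. Ifnar1 had a log2 fold change of -0.05 and Ifnar2, the other receptor chain, one of 0.53 (adjusted p = 0.0052). Zinc in GRDim mice lowered Socs1 (-1.25) and Socs3 (-0.82) and called none of the 31 higher. The genotype difference on water was smaller in muscle-poor libraries for Ifng (-2.79), Socs1 (-1.92), Irf8 (-0.97) and Irf1 (-0.91), by the same test as for the members.

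**Figure D5:**
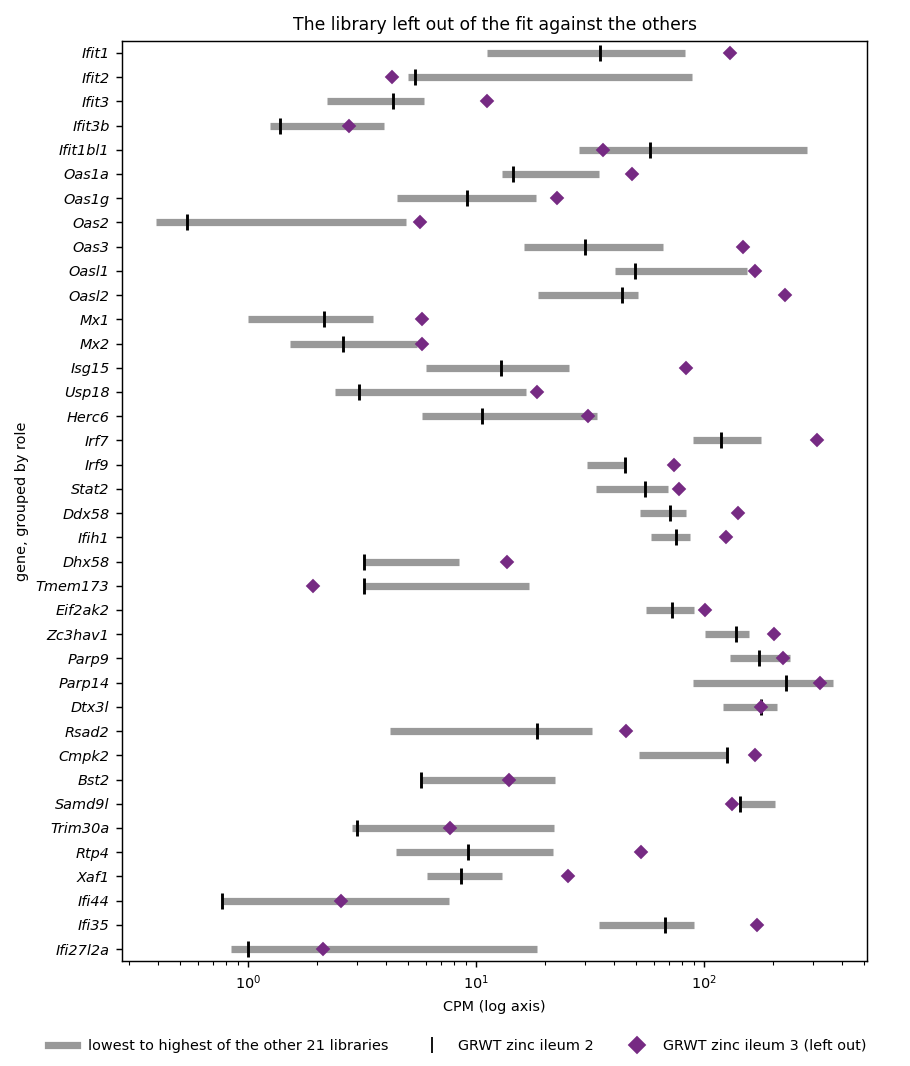
CPM (log axis) of each member in GRWT zinc ileum 3, the library left out of the fit (diamond), beside the lowest to highest of the other 21 libraries (grey bar) and GRWT zinc ileum 2 (tick). The diamond lies right of the bar for 25 members, such as Oasl2 (224.9 CPM) and Isg15 (82.97 CPM), and left of it for Ifit2, Samd9l and Tmem173.

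GRWT zinc ileum 3, the library with little Fabp6, stood apart from the others in many members. For 25 of the 38 members it lay above all of the other 21 libraries, as it did for 24.6% of all tested genes. Both figures use CPM corrected by TMM factors and depend on the factor of this library. They were not taken by library total alone. Oasl2 was 224.9 CPM there and at most 51.2 CPM elsewhere. Isg15 was 82.97 CPM against at most 25.5 CPM, Irf7 313 against 177, Rtp4 52.6 against 21.7 and Dhx58 13.6 against 8.37 CPM. Of the 6 members called higher in GRDim mice on water, Usp18 (18.4 against at most 16.5 CPM) and Oasl1 (166.6 against at most 154 CPM) were among the 25. Ifit2 was 4.26 CPM, under the 5.02 CPM of the next lowest library, and Ifit1bl1 (36.0 CPM), Ifi44 (2.56 CPM) and Herc6 (30.8 CPM) lay within the range of the others. Tmem173 and Samd9l were also below all others, as were 28.2% of all tested genes. The summed lymphocyte markers were 517 CPM in this library, against 165 CPM in GRWT zinc ileum 2 and 67.2 to 103 CPM in the other GRWT zinc libraries, and their part in its levels was not tested. As 1 library, it bears no test.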

How the data were processed

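RNA was measured in 22 libraries of mouse small intestine. The authors prepared stranded single-end libraries, aligned reads to mm10 with HISAT2 2.0.4 and assigned them to genes by featureCounts without multiply matching reads. The deposited counts are raw and carry no normalization, and the annotation release and the strand setting are not given in the sources used here. Counts were fitted in R 4.3.3 with edgeR 4.0.16 (quasi-likelihood F test, robust, TMM factors, filterByExpr on 8 label groups), with the 4 conditions and the muscle split (Myh11 over or under 100 CPM) as terms and without GRWT zinc ileum 3, which left 21 libraries. P-values were adjusted over 16332 genes by Benjamini-Hochberg. A gene was called at an adjusted p under 0.05 and a log2 fold change beyond 0.8, and for differences between differences at the adjusted p alone. CPM of the floor and of Myh11 in the split are counts scaled to the library total. All other CPM are scaled to the total over genes that passed the filter, times the TMM factor of the library. Of 54838 identifiers, 54809 matched GENCODE vM21. The procedure was tested on simulated data.

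Members called in a comparison of zinc or genotype are given with their values, and the others by ranges and counts. The members, lists, covariate and left-out library were chosen with earlier results of these data known. Alternatives were DESeq2 1.42.0, DESeq2's size factors in edgeR, other filters, covariates and sample sets, a replicate block, and each library left out in turn. Counting precision is set by the library totals, and floors cover counting error only. A result on the wider pathway is not reported here.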

Additional observations from a re-analysis of the deposited data

Results flagged for a closer look

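Within each condition, the highest or lowest library was compared with the spread of the others by Dixon's criterion, in 152 groups of 1 gene and 1 condition. Chance alone marks about 1 in 20 such groups, or 7.6 of 152, and 17 were marked. Of these, 12 were in GRWT zinc ileum 3, the library left out of the fit, which stood above the other GRWT zinc libraries. There, Ifit1 measured 129.7 CPM, Ifit3 11.18, Isg15 82.97, Oas3 147.9, Oasl1 166.6 and Oasl2 224.9 CPM. Usp18 measured 18.43 CPM, Ddx58 140.3, Ifih1 125.0, Ifi35 170.9, Rtp4 52.61 and Herc6 30.78 CPM in the same library. It also lay above all other libraries for 25 members in these TMM-corrected CPM, and the fit on 21 libraries did not use it.

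The other 5 libraries that stood apart were single values. Ifit2 was 24.15 CPM in GRWT water ileum 3, the highest of its group, and Ifit3 was 2.771 CPM in GRWT water IEC 4. Ifit1bl1 was 57.54 CPM in GRWT zinc ileum 2, the only muscle-poor library of its condition in the fit, and 223.7 CPM in GRDim water ileum b, the lowest of its group. Isg15 was 25.48 CPM in GRDim water ileum 1.

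The genotype difference on water differed between muscle-poor and muscle-rich libraries, by the interaction term in edgeR, for 10 members. The differences between the log2 fold changes were -2.32 for Ifit1bl1, -1.56 for Ifit2, -1.49 for Rsad2, -1.24 for Herc6, -1.18 for Ifit1 and -0.93 for Parp14. They were -0.47 for Parp9, -0.41 for Stat2, -0.35 for Eif2ak2 and 2.79 for Oas2.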

How the results depend on the processing

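Counts of called members changed with the libraries entered, the covariate, the tool and the threshold. For zinc in GRDim mice 5 members were called, against 1 with all 22 libraries, 3 without a covariate, 2 in muscle-rich and 8 in muscle-poor libraries, 1 in all 10 muscle-poor libraries and 3 without a count filter. For genotype on water 8 were called, against 14 in muscle-rich and 2 in muscle-poor libraries, 0 in all 10 muscle-poor libraries and 16 by adjusted p alone. For genotype on zinc 3 were called, against 8 with all 22 libraries, 1 with the tissue label as covariate, 0 without a covariate, 7 in muscle-rich libraries, 0 in muscle-poor libraries with or without GRWT zinc ileum 3, 5 by DESeq2 and 6 by adjusted p alone. For zinc in GRWT mice 0 became 1 in muscle-poor libraries and 1 by DESeq2. The interaction went from 0 to 1 by DESeq2. The difference of the genotype effect between the sides went from 10 members to 3 with all 22 libraries. GRDim on zinc against GRWT on water went from 0 to 6 in muscle-rich and 2 in muscle-poor libraries. The muscle split itself went from 6 to 3 among genes of at least 5 CPM and to 19 by adjusted p alone. At an unadjusted p under 0.05 in edgeR there were 19 members as well, against 11409 of the 16332 genes. Where no share of all genes is given in this section or above, a count describes the processing and not the members. The cause was not tested beyond the smaller number of libraries or genes where these apply.

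Leaving out each library in turn gave 3 to 5 members for zinc in GRDim mice, 6 to 11 for genotype on water, 2 to 4 for genotype on zinc, 3 to 11 for the difference between the sides, 5 to 7 for the split, and 0 throughout for zinc in GRWT mice, the interaction and GRDim on zinc against GRWT on water. Zinc in GRDim mice gave 3 without GRDim water IEC 5, ileum 1 or ileum a, and without GRDim zinc IEC 4, 5 or 6. The sign turned for Oas2 on water, at 0.55 in muscle-poor libraries and 0.55 in all 10 of them, and for Ifit1 on zinc, at -0.74 in all 10.

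Replicate numbers were not shown to pair the libraries. The correlation of deviations over 23 pairs with the same number ran from -0.247 to 0.325 and passed 0.1 in 8. Pairs with different numbers were not set beside them, so this check cannot exclude a pairing. A fit with the replicate number as a block over the 19 numbered libraries called 2 members in the interaction (Usp18 at -1.91 and Ifit2 at -2.15), against 0 without the block in the same libraries. It called 7 against 4 for zinc in GRDim mice, 11 against 10 for genotype on water and 3 against 3 for genotype on zinc.

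At these depths, members near 1 CPM such as Oas2 and Mx1 rest on few counts, and differences in them are less certain.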
